A study of Sus scrofa with 16 samples.

Results

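The genes described here make GABA, load it into synaptic vesicles, receive it and set what it does to a neuron, and they were read in hippocampal RNA of newborn preterm pigs. They are GAD1, GAD2, SLC32A1, GABRA2, GABRA5, SLC12A2 and SLC12A5. They were chosen by name, and a gene entered when its pig Ensembl identifier carried that symbol. All 7 were found among 21956 gene identifiers, and none was missing. After identical entries were dropped, 6 of the genes had 1 entry each and GABRA2 had 2, so the 7 genes hold 8 of the 22815 entries in the table.

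The pigs had been delivered preterm by caesarean section and fed human donor milk and parenteral nutrition for 8 days, a regimen in which some pigs develop necrotizing enterocolitis (NEC), an inflammatory gut disease, without further treatment. The 16 pigs fell into 3 groups. The 5 No NEC pigs (labelled noNEC) had no gut lesion, the 5 Co-NEC pigs (coNEC) had lesions in the colon alone, and the 6 Si-NEC pigs (siNEC) had lesions in the small intestine with or without the colon. There were 2 female and 3 male pigs in each of the No NEC and Co-NEC groups, and 3 of each sex in the Si-NEC group. All pigs shared the preterm birth, the rearing and the age, so there is no term-born or older group, and the lesions arose by themselves rather than being assigned. The diets held different types of donor milk, which the labels do not give per pig. The study's pigs came from several sows, and litter was not used in any test here. The comparisons address whether gut lesions in these pigs went with other levels of the genes that set inhibition in the hippocampus.

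GABA is the main inhibitory transmitter of the mature brain. In the immature hippocampus it can instead depolarise neurons, because the importer NKCC1 (SLC12A2) keeps chloride in the cell high, and inhibition matures as the neuronal extruder KCC2 (SLC12A5) takes over. Over the same period the alpha subunits of the GABA-A receptor shift, and alpha 2, alpha 3 and alpha 5 are prominent early. GAD1 encodes GAD67, the enzyme that makes most of the GABA in the cell body, GAD2 encodes GAD65, which makes GABA at terminals, and SLC32A1 encodes VGAT, the transporter that fills vesicles.

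The values are FPKM (sequenced fragments scaled to the length of the transcript and to the mapped total of the pig), which the authors estimated, so levels of different genes are compared here per transcript length. No read counts were used, so the depth behind a value and its counting error are unknown. The FPKM of a pig summed to between 544629 and 645197 in 14 pigs, but to 864931 in No NEC pig 230-15 and 823320 in Si-NEC pig 223-15, so several results are also given without them. Hippocampal markers were present, with LHX2 at 53.9 to 73.5 FPKM and FIBCD1, a marker of CA1 neurons, at 37.5 to 102 FPKM, while the thalamic gene GBX2 did not exceed 0.124 FPKM and the striatal dopamine receptors DRD1 and DRD2 did not exceed 1.30 and 0.546 FPKM. The 10 striatal and thalamic markers matched were not all low, and summed to between 89.4 and 126 FPKM in 14 pigs, to 219 FPKM in 230-15 and to 168 FPKM in 223-15. PENK, which made up most of the sum, averaged 77.2 FPKM and PPP1R1B 15.3 FPKM, both highest in 230-15, and the part of such tissue in the results was not tested. In bulk tissue, fewer cells of a type and less RNA per cell cannot be told apart.

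GAD1, SLC12A5 and GABRA5 were read at about the same high level. Over the 16 pigs, GAD1 averaged 88.4 ± 6.65 FPKM, SLC12A5 81.9 ± 11.8 FPKM and GABRA5 77.0 ± 12.4 FPKM (SD, n = 16). GAD1 was above SLC12A5 in 11 of 16 pigs and above GABRA5 in 14, and GABRA5 was above SLC12A5 in 5, so the order of SLC12A5 and its neighbours was not the same from pig to pig. GABRA2 at 42.8 ± 7.65 FPKM and SLC32A1 at 38.1 ± 4.25 FPKM came next and could not be ranked, SLC32A1 being the higher in 6 of 16 pigs. GAD2 at 22.1 ± 3.08 FPKM lay below both in 16 of 16 pigs. SLC12A2 was the lowest of the 7 in every pig, at 9.17 ± 2.1 FPKM. GAD1 varied least between pigs, with a coefficient of variation of 7.52%, and SLC12A2 most, with 22.9%.

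**Figure D1:**
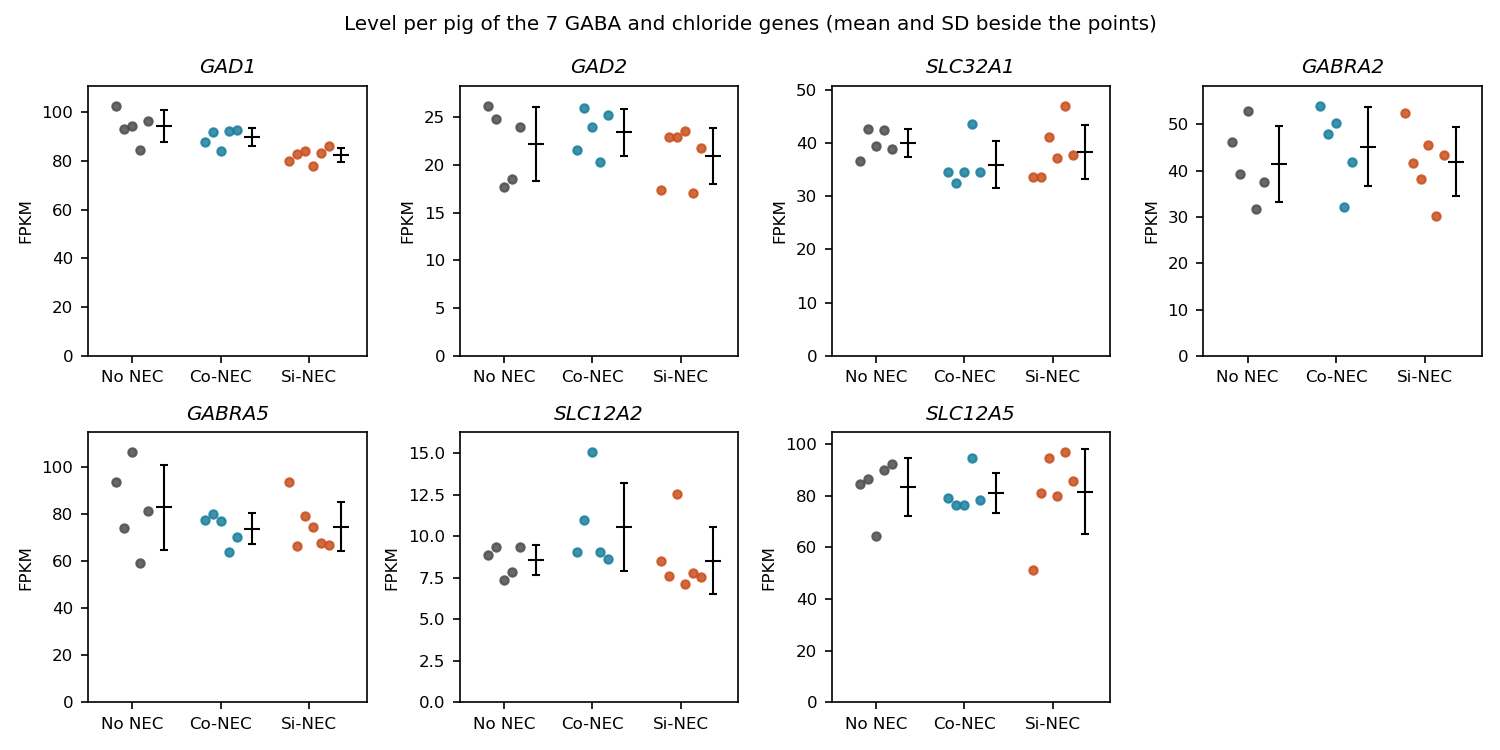
FPKM (vertical axes, from 0) of the 7 genes in each pig, by group; a point is a pig, and the black mark and bar beside each group give its mean and SD. The groups overlap for each of these genes; for GAD1, 5 of 6 Si-NEC pigs lie below every No NEC pig.

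None of the 7 genes passed the test in any comparison. With limma on log2(FPKM + 0.5) and Benjamini-Hochberg adjustment over the 13590 entries tested, 0 of 7 reached an adjusted p under 0.2, the threshold used in the study, in Si-NEC against No NEC (background 0.00736% of entries), in Co-NEC against No NEC (0.00736%) and in Si-NEC against Co-NEC (0.0147%). The last of these backgrounds moved from 2 entries to 201 with array weights and to 12 without Si-NEC pig 547-14, with 0 of the 7 genes called in either. The study applied that threshold to a different test, Cuffdiff, which called more genes in each comparison than limma called entries here. At an unadjusted p under 0.05, 1 of 7 (GAD1) had a lower mean in the Si-NEC group than among No NEC pigs, against 2.61% of all entries in either direction and 1.02% lower. The groups of no gene were free of overlap, against 0.155%, 0.464% and 0.545% of entries in the same order of comparisons. The counts at that unadjusted level were 0 of 7 for Co-NEC against No NEC (3.44% of all entries) and 0 of 7 for Si-NEC against Co-NEC (5.64%). The median log2 fold change of the 7 genes was -0.07, -0.04 and -0.10 in the order above, beside 0.02, 0.01 and 4.82e-05 over all entries tested. The comparisons share groups of pigs, so their values are not independent of each other. All 7 genes passed the filter of a mean of at least 0.5 FPKM. Each gene was also compared with a two-sided exact permutation test of the mean log2 value, 21 tests over the 7 genes and 3 comparisons, whose p-values are not adjusted.

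GAD1 (ENSSSCG00000022233) had the smallest p of the 7 genes in Si-NEC against No NEC. The No NEC pigs had 84.6, 93.1, 94.5, 96.4 and 103 FPKM, the Co-NEC pigs 84.1, 87.8, 91.8, 92.4 and 92.7 FPKM, and the Si-NEC pigs 78.0 FPKM at the lowest, 83.1 at the median and 86.2 at the highest. Of the Si-NEC pigs, 5 of 6 were below every No NEC pig, as were all or all but 1 of the Si-NEC pigs for 0.596% of the entries tested. The exception, 226-15 with 86.2 FPKM, was above a single No NEC pig, 253-15.

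The mean of the Si-NEC group was 87.4% of the No NEC mean, at 82.4 ± 2.97 FPKM (SD, n = 6) against 94.3 ± 6.49 FPKM (SD, n = 5). The log2 fold change was -0.19 (SE 0.084, 95% interval -0.37 to -0.0069), with an unadjusted limma p of 0.0432 and an adjusted p of 1. The two-sided exact permutation test, in which 2 of 462 splits of the pigs gave as large a difference, had p = 0.00433, and leaving out any 1 pig kept this p between 0.00476 and 0.0159 and the log2 difference between -0.23 and -0.16. The pooled, moderated spread of limma and the exchange of pigs thus gave different p-values for the same difference, and it did not pass the adjustment over all entries.

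The Co-NEC group lay between the other groups, at 89.8 ± 3.71 FPKM for GAD1 (SD, n = 5). Si-NEC against Co-NEC gave a log2 fold change of -0.12 (95% interval -0.26 to 0.017), with 4 of 6 Si-NEC pigs below every Co-NEC pig. The exact permutation p of that difference was 0.0108, ranging from 0.00476 to 0.0238 without any 1 pig, and the limma adjusted p was 0.867. Co-NEC against No NEC gave -0.07 (95% interval -0.25 to 0.12), with an exact permutation p of 0.198. Leaving out pig 540-14, whose 103 FPKM was the highest of all, moved the log2 difference of Co-NEC and No NEC to -0.04 with an exact permutation p of 0.444, and leaving out 253-15, the lowest of the No NEC pigs, moved it to -0.11 with an exact permutation p of 0.00794.

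GAD2 (ENSSSCG00000011060) differed between groups by less than the spread between pigs. It was read at 17.7, 18.5, 23.9, 24.8 and 26.2 FPKM in the No NEC pigs, at 20.3, 21.5, 24.0, 25.2 and 25.9 FPKM in those with Co-NEC, and at 17.1, 22.3 and 23.6 FPKM (lowest, median and highest) in the Si-NEC pigs. The groups overlapped throughout. The lowest Co-NEC pig lay above the lowest pigs of the other groups, and the highest Si-NEC pig below the highest of the others. The log2 fold change was -0.08 (95% interval -0.39 to 0.23) for Si-NEC against No NEC, 0.08 (-0.21 to 0.38) for Co-NEC against No NEC and -0.16 (-0.41 to 0.083) between Si-NEC and Co-NEC. Their exact permutation p-values were 0.561, 0.540 and 0.188.

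GAD1 exceeded GAD2 in all 16 pigs, with a median ratio of 3.94 and a range from 3.31 to 5.35. The group medians of this ratio were 4.03 in No NEC, 3.67 in Co-NEC and 3.82 in Si-NEC pigs. The log2 ratio differed by -0.11 for Si-NEC against No NEC, -0.15 for Co-NEC against No NEC and 0.04 between Si-NEC and Co-NEC, with exact permutation p-values of 0.377, 0.214 and 0.732. Thus no group difference in the balance of the 2 enzymes was larger than the spread between pigs.

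SLC32A1 (ENSSSCG00000007348), the vesicular transporter, was read at 36.5, 38.8, 39.4, 42.3 and 42.7 FPKM in the No NEC pigs. The Co-NEC pigs had 32.5, 34.5, 34.6, 34.6 and 43.5 FPKM, so that 4 of 5 lay below every No NEC pig and the fifth, 255-15, above all of them. All or all but 1 of the Co-NEC pigs were below every No NEC pig for 2.19% of the entries tested. The Si-NEC pigs spanned 33.6 to 46.9 FPKM with a median of 37.5 and overlapped both groups. Co-NEC against No NEC gave a log2 fold change of -0.16 (95% interval -0.38 to 0.064) with an exact permutation p of 0.0952, and without pig 255-15 the difference was -0.23 with p = 0.0159 by the same exact test. Over all single pigs left out it ranged from -0.23 to -0.12 and the exact p from 0.0159 to 0.190. Its limma adjusted p was 0.812 with all pigs and lay between 0.662 and 0.943 when any 1 pig was left out. Si-NEC differed by -0.07 (-0.30 to 0.17) from No NEC and by 0.09 (-0.14 to 0.32) from Co-NEC on the log2 scale, with exact permutation p-values of 0.489 and 0.400.

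The alpha 2 to alpha 5 subunits of the GABA-A receptor were set beside each other as shares. Of their summed FPKM, GABRA5 made up 36.2% ± 5.30, GABRA3 35.1% ± 8.25, GABRA2 20.0% ± 2.85 and GABRA4 8.63% ± 1.18 (mean ± SD, n = 16). GABRA3 and GABRA5 could not be ranked, GABRA5 being the higher in 9 of 16 pigs, and GABRA2 was above GABRA3 in 1 of 16 pigs and above GABRA5 in 0. GABRA6, the subunit of cerebellar granule cells, did not exceed 0.103 FPKM and was listed at 0 in 14 pigs. In the pig with the highest GABRA5 share, 230-15 (47.3%), GABRA3 had its lowest share (19.7%), and in 255-15 GABRA3 had its highest (47.5%).

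**Figure D2:**
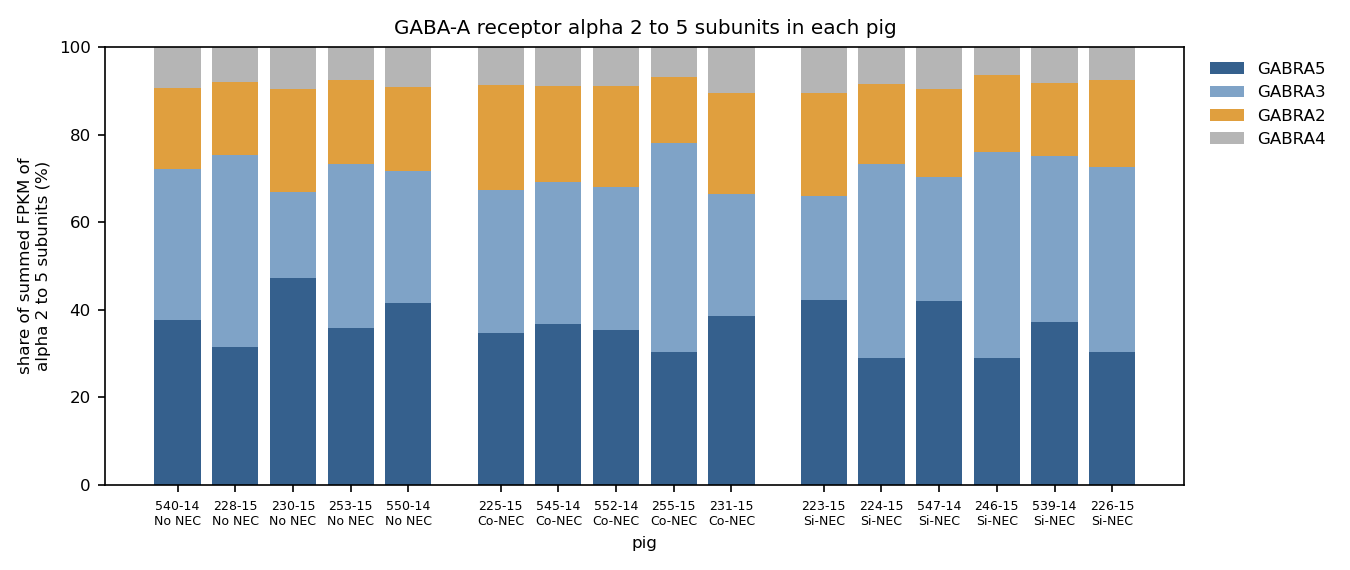
Share of each subunit in the summed FPKM of alpha 2 to alpha 5 (vertical axis, %), 1 bar per pig, grouped by No NEC, Co-NEC and Si-NEC. GABRA5 and GABRA3 make up most of each bar, GABRA2 15.3% to 24.2% and GABRA4 6.41% to 10.5%.

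GABRA5 (ENSSSCG00000004827) encodes alpha 5, which the hippocampus holds at an unusually high level and which carries much of the tonic, extrasynaptic inhibition there. The No NEC pigs had 59.2, 74.0, 81.5, 93.7 and 106 FPKM, the Co-NEC pigs 64.0, 70.4, 77.2, 77.4 and 80.0 FPKM, and the Si-NEC pigs 66.3, 71.2 and 93.5 FPKM (lowest, median and highest). The No NEC group held both the lowest and the highest pig, and the other groups lay inside its range. The log2 fold change was -0.13 (95% interval -0.47 to 0.20) for Si-NEC against No NEC, -0.14 (-0.48 to 0.19) for Co-NEC against No NEC and 0.01 (-0.22 to 0.24) between Si-NEC and Co-NEC, with exact permutation p-values of 0.405, 0.389 and 0.920. The highest pigs of the No NEC and Si-NEC groups were 230-15 and 223-15, those with the highest summed FPKM. Without them, the first 2 differences were -0.10 and -0.05.

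GABRA2 (ENSSSCG00000028922) encodes alpha 2, a synaptic subunit abundant early in life. Its main entry was read at 31.6, 37.5, 39.2, 46.1 and 52.8 FPKM in the No NEC pigs, at 32.0, 41.8, 47.8, 50.1 and 53.9 FPKM in those with Co-NEC, and at 30.2, 42.5 and 52.4 FPKM (lowest, median and highest) in the Si-NEC pigs. All groups covered nearly the same range. The log2 fold change was 0.02 (95% interval -0.33 to 0.37) for Si-NEC against No NEC, 0.12 (-0.26 to 0.50) for Co-NEC against No NEC and -0.10 (-0.44 to 0.24) between Si-NEC and Co-NEC, and the exact permutation p-values were 0.909, 0.5 and 0.539. A separate entry under the same identifier was listed at 0 in 13 pigs and at 6.99 FPKM in 230-15, 1.92 FPKM in 223-15 and 0.0966 FPKM in 550-14.

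The balance of GABRA2 and GABRA5 within a pig differed more between groups than either gene did. The ratio was 0.460, 0.491, 0.497, 0.529 and 0.534 in the No NEC pigs, and 0.501, 0.594, 0.597, 0.649 and 0.696 in the Co-NEC pigs. Thus 4 of 5 Co-NEC pigs exceeded each of the No NEC pigs, and the fifth, 255-15, was inside their range. The Si-NEC pigs spread from 0.446 to 0.649 with a median of 0.585, covering both groups, with 4 of 6 above every No NEC pig.

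The log2 ratio of GABRA2 to GABRA5 was higher by 0.27 in Co-NEC than in No NEC pigs, a ratio at 120% of that of the No NEC group. The exact permutation p was 0.0238 (6 of 252 splits) before adjustment and 0.286 after Benjamini-Hochberg adjustment over the 12 ratio comparisons made, so it did not hold up over the family. Leaving out any 1 pig kept the unadjusted exact p between 0.00794 and 0.0476. With pigs exchanged only within a sex, or only within the suffix (14 or 15) of their numbers, the exact p was 0.05. For Si-NEC against No NEC the difference was 0.15 with an exact permutation p of 0.175, and for Si-NEC against Co-NEC it was -0.12 with an exact permutation p of 0.353.

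SLC12A5 (ENSSSCG00000007437), the chloride extruder KCC2, was already read at a high level at this age. The No NEC pigs had 64.2, 84.3, 86.4, 90.1 and 92.1 FPKM, the Co-NEC pigs 76.2, 76.4, 78.4, 79.2 and 94.5 FPKM, and the Si-NEC pigs 51.3, 83.3 and 96.7 FPKM (lowest, median and highest). The lowest pigs of the No NEC and Si-NEC groups were again 230-15 and 223-15, and 255-15 stood above the other Co-NEC pigs. The log2 fold change was -0.05 (95% interval -0.41 to 0.31) for Si-NEC against No NEC, -0.04 (-0.30 to 0.22) for Co-NEC against No NEC and -0.01 (-0.34 to 0.31) between Si-NEC and Co-NEC, with exact permutation p-values of 0.771, 0.770 and 0.976. The sign of the first and the last of these turned without pig 223-15, to 0.08 and 0.11.

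SLC12A2 (ENSSSCG00000014255), the chloride importer NKCC1, is also made by glia, vessels and choroid plexus. The No NEC pigs had 7.36, 7.84, 8.89, 9.33 and 9.33 FPKM, the Co-NEC pigs 8.63, 9.03, 9.07, 11 and 15.0 FPKM, and the Si-NEC pigs 7.13, 7.72 and 12.5 FPKM (lowest, median and highest). Of the Si-NEC pigs, 5 of 6 were below every Co-NEC pig and the sixth, 547-14, was above 4 of them; all or all but 1 pig were below for 1.76% of entries in that comparison. Co-NEC against No NEC gave a log2 fold change of 0.26 (95% interval -0.078 to 0.61) with an exact permutation p of 0.143, and 0.13 with an exact permutation p of 0.254 without its highest pig, 552-14. Si-NEC against Co-NEC gave -0.29 (-0.66 to 0.083) with an exact permutation p of 0.145. This difference was -0.40 with an exact permutation p of 0.00794 without 547-14 and -0.16 with an exact permutation p of 0.338 without 552-14, while the limma adjusted p stayed at or above 0.609 whichever pig was left out. Si-NEC against No NEC gave -0.02 (-0.34 to 0.30) with an exact permutation p of 0.909.

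Markers of the other cell types that make SLC12A2 were read in the same pigs. Pig 552-14, highest for SLC12A2, had the highest summed FPKM of the oligodendrocyte markers measured (3654, of a range over pigs from 1622), and 547-14, the next for SLC12A2, had 2680. Pigs 223-15 and 230-15 also had high sums of these markers, 3512 and 3263 FPKM, with 8.54 and 7.36 FPKM of SLC12A2. The choroid plexus markers summed to 8.84 FPKM in 552-14 and 10.5 FPKM in 547-14, of a range over the groups from 3.14 to 28.8 FPKM, and the 4 endothelial markers to between 11.4 and 34.9 FPKM. The choroid plexus gene TTR was listed at 0 in 255-15 and reached 25.3 FPKM in 246-15. The part of these cells in the SLC12A2 values was not tested.

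At the RNA level, the balance of the chloride transporters favoured the extruder in every pig. Protein and transport were not measured here. SLC12A5 was read at 5.06 to 12.4 times SLC12A2, with a median of 9.37 over the 16 pigs. The ratio was 8.72, 9.26, 9.48, 9.87 and 11.5 in the No NEC pigs, 5.06, 6.95, 8.77, 9.08 and 10.4 in the Co-NEC pigs, and 6.01, 10.9 and 12.4 (lowest, median and highest) in the Si-NEC pigs. The groups overlapped, and the spread was wider with either form of NEC, at 2.08 (SD, n = 5) and 2.49 (SD, n = 6) against 1.05 (SD, n = 5) in No NEC pigs; that difference in spread was not tested.

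The log2 ratio of SLC12A5 to SLC12A2 differed by -0.03 for Si-NEC against No NEC, by -0.30 for Co-NEC against No NEC and by 0.27 between Si-NEC and Co-NEC. The exact permutation p-values were 0.892, 0.159 and 0.273. Without Co-NEC pig 255-15 the second difference was -0.40, with an exact permutation p of 0.0238, and without 552-14 it was -0.15, with an exact permutation p of 0.302. The third ranged from 0.12, without 552-14, to 0.41, without 223-15, with exact permutation p-values from 0.0873 to 0.571 over all single pigs left out. The low Co-NEC values came from 552-14 and 545-14, the pigs with the highest SLC12A2 in the group, while their SLC12A5 was 76.2 and 76.4 FPKM, at the low end for Co-NEC.

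**Figure D3:**
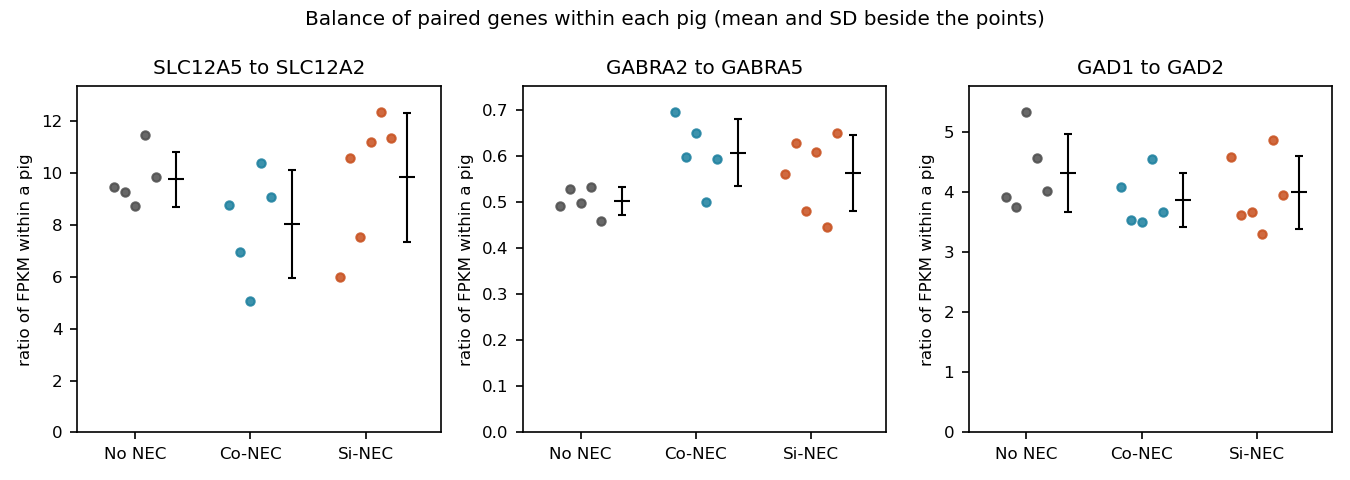
Ratio of FPKM within each pig (vertical axes, from 0) for SLC12A5 to SLC12A2, GABRA2 to GABRA5 and GAD1 to GAD2, by group; points are pigs, and the black mark and bar give the mean and SD. In the middle panel, 4 of 5 Co-NEC pigs lie above every No NEC pig. The groups overlap in every panel.

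**Figure D4:**
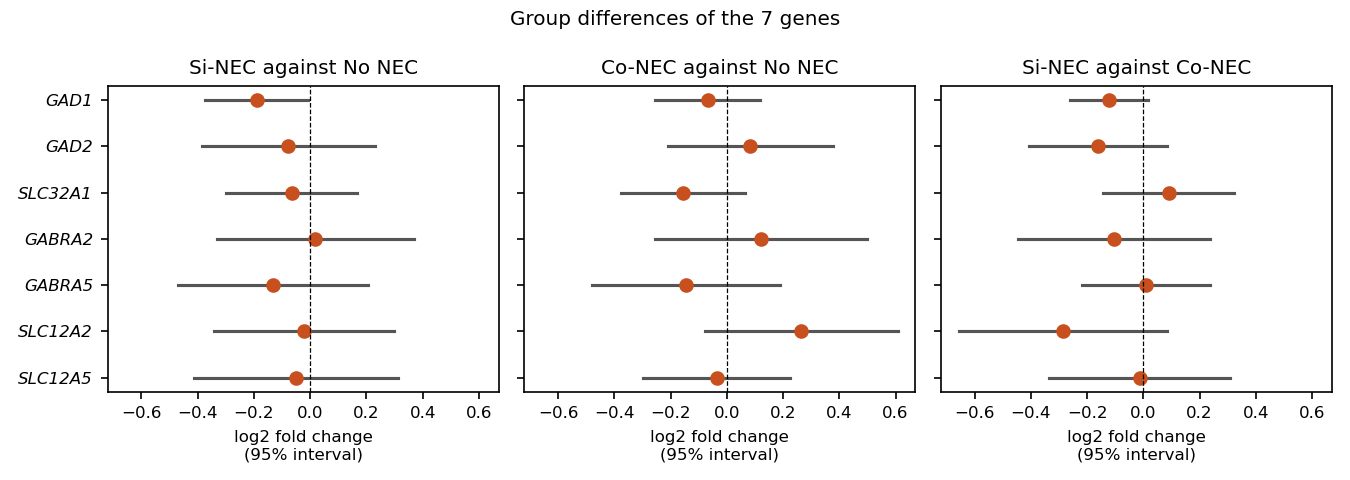
Log2 fold change of each of the 7 genes (point) with its 95% interval (line) from limma, for the 3 comparisons; values left of the dashed line at 0 are lower in the group named first. The intervals include 0 except for GAD1 in Si-NEC against No NEC, at -0.37 to -0.0069, whose adjusted p was 1.

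Of 5 pairs examined over the 16 pigs, GABRA2 and GABRA5 had Pearson r = 0.692 (permutation p = 0.00312, adjusted 0.0156) and Spearman rho = 0.626 (permutation p = 0.0107, adjusted 0.0535). Without 539-14 and 253-15, the pigs farthest from the median of GABRA2, r was 0.600 (permutation p = 0.0233) and rho 0.516 (permutation p = 0.0616). Without 223-15 and 230-15, r was 0.588 (permutation p = 0.0276) and rho 0.503 (permutation p = 0.0706). Within the pigs whose number ends in 15, r was 0.811 (permutation p = 0.00444) and rho 0.879 (permutation p = 0.00162), and within the 6 that end in 14 they were 0.611 and 0.143 (exact permutation p = 0.192 and 0.803). Many entries ran with these genes as closely, GABRA5 standing at place 1516 of 13589 by likeness to GABRA2, and GABRA2 at place 1610 by likeness to GABRA5. The other pairs did not pass, with r = 0.390 for GAD1 and GAD2 (rho = 0.412, adjusted permutation p-values 0.227 and 0.272) and r = 0.055 for GAD1 and SLC32A1 (rho = 0.185, adjusted 0.836 and 0.612). GAD2 and SLC32A1 gave r = -0.424 (rho = -0.368, adjusted permutation p-values 0.227 and 0.272), and SLC12A2 and SLC12A5 gave r = 0.086 (rho = 0.115, adjusted 0.836 and 0.673).

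The genes with the pattern most like each member over the 16 pigs were found by Pearson r of log2(FPKM + 0.5) among named entries, as a description of libraries that also share their depth and quality. SLC12A5 was most like HTT (r = 0.978), CAMSAP1 (0.967) and MAPK8IP3 (0.965). GABRA5 was most like PLK2 (0.956), TMEM87A (0.928) and CTCF (0.926), or 0.932, 0.871 and 0.852 without those 2 pigs. GABRA2 was most like CCSER2 (0.955), GTF2A1 (0.946) and RUFY3 (0.945), or 0.960, 0.935 and 0.931 without them. GAD2 was most like ERBB4 (0.910), a receptor of interneurons, then SCN3A (0.903) and TMEM131 (0.900). Without the same pigs the values were 0.865, 0.858 and 0.929, with TMEM131 above ERBB4. SLC32A1 was most like KPTN (0.884), RPTOR (0.878) and TMEM198 (0.875), and SLC12A2 most like MAN1A1 (0.878), PLA2R1 (0.862) and STRN (0.834). GAD1 had no partner above 0.794 (SLC26A4), followed by NAALADL1 (0.785) and CCDC149 (0.776). Of these, SLC26A4 and NAALADL1 averaged 1.02 and 0.959 FPKM, near the limit of the filter.

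The synthesis genes did not rank among each other's closest partners. GAD2 stood at place 664 of 13589 entries by likeness to GAD1, and at place 10816 by likeness to SLC32A1. SLC32A1 ran against GABRA2, with r = -0.784, and with SLC12A5, with r = 0.602, or 0.893 without 223-15 and 230-15; these pairs were picked after the values were seen.

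The other genes of the pathway were read from lists, and none passed the adjusted test in any comparison. Of 15 further GABA-A receptor subunit genes, 8 were matched by name and 5 tested. Their median log2 fold change was 0.04 for Si-NEC against No NEC, with 3 of 5 higher, -0.02 for Co-NEC against No NEC, with 2 of 5 higher, and -0.00098 between Si-NEC and Co-NEC, with 2 of 5 higher. GABRG1, a gamma subunit, averaged 24.8 FPKM. It had the smallest p of the list in Co-NEC against No NEC, at 0.32 on the log2 scale (SE 0.21, limma adjusted p = 0.812), and between Si-NEC and Co-NEC, at -0.27 (SE 0.18, limma adjusted p = 0.867). GABRA3 had it in Si-NEC against No NEC, at 0.19 (SE 0.27). GABRE and GABRR1, at 0.697 and 1.09 FPKM on average, were near the limit of the filter. GABBR1, the subunit of the metabotropic GABA-B receptor that binds GABA, was read at 241 FPKM on average and differed by -0.07, 0.01 and -0.09 in the 3 comparisons.

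In the list of GABA uptake and breakdown, 4 single-entry genes were tested of 7, among them SLC38A2, which carries small neutral amino acids such as glutamine rather than GABA. The median was 0.12 for Si-NEC against No NEC (3 of 4 higher), 0.15 for Co-NEC against No NEC (3 of 4 higher) and -0.04 between Si-NEC and Co-NEC (1 of 4 higher). ABAT, which breaks GABA down, averaged 62.0 FPKM. It differed by 0.13 in Si-NEC and by 0.14 in Co-NEC from No NEC on the log2 scale, with SEs of 0.13 and 0.15. ALDH5A1, the next enzyme of that route, differed by 0.10 and 0.17 (SE 0.15 and 0.14), and SLC38A2 and SLC6A13 by -0.33 (SE 0.22) and 0.20 (SE 0.17) in Si-NEC against Co-NEC.

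For inhibitory synapse assembly, 7 of 14 genes were tested, with medians of 0.01, 0.02 and -0.10 and with 4, 5 and 2 of 7 higher in the 3 comparisons. GPHN, the scaffold gephyrin, averaged 24.2 FPKM and differed by at most 0.05. SLITRK3, an adhesion protein of inhibitory synapses, differed by 0.16 in Si-NEC and by 0.30 in Co-NEC from No NEC (SE 0.18 and 0.17), HAP1 by -0.17 (SE 0.12) in Si-NEC against No NEC, and TRAK1 by 0.10 (SE 0.084) in Co-NEC against No NEC. TRAK1 by -0.18 (SE 0.090) and CLPTM1 by 0.12 (SE 0.077) had the smallest p in Si-NEC against Co-NEC.

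Of 18 genes of chloride transport and its regulators 7 were tested, with medians of -0.01, 0.12 and -0.10 and with 3, 5 and 1 of 7 higher in the 3 comparisons. WNK3, a kinase that activates NKCC1 and restrains KCC2, was read at a low level. The Co-NEC pigs had 1.36, 1.59, 1.74, 1.91 and 1.95 FPKM, and the Si-NEC pigs 0.651, 1.24 and 1.60 FPKM (lowest, median and highest), 5 of 6 of them below every Co-NEC pig. Si-NEC against Co-NEC gave -0.43 on the log2 scale (SE 0.16, limma adjusted p = 0.858, exact permutation p = 0.0152), and -0.33 with an exact permutation p of 0.0238 without 223-15. Co-NEC against No NEC gave 0.59 (SE 0.30, limma adjusted p = 0.812, exact permutation p = 0.0476), and 0.29 with an exact permutation p of 0.0873 without 230-15. In No NEC pigs it spanned 0.131 FPKM, in 230-15, to 1.69 FPKM. CLCN2, a chloride channel, differed by -0.44 (SE 0.21) in Si-NEC and -0.34 (SE 0.22) in Co-NEC from No NEC, and SLC12A8 by -0.49 (SE 0.32) between Si-NEC and Co-NEC. WNK1 and STK39, which act with WNK3 on both transporters, averaged 18.4 and 26.3 FPKM and differed by at most 0.12.

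Genes of the neurons that make GABA were read for comparison with the synthesis genes. Of 17 genes of interneuron development 9 were tested, with medians of -0.03, 0.07 and 0.01 and 3, 5 and 5 of 9 higher. LHX6, which specifies interneurons of the medial ganglionic eminence, averaged 7.31 FPKM and differed by at most 0.03 in size. PROX1 differed by 0.22 (SE 0.14) in Si-NEC against No NEC, DLX2 by -0.17 (SE 0.15) in Co-NEC against No NEC and DLX1 by -0.17 (SE 0.12) in Si-NEC against Co-NEC. Thus for these genes, too, no difference passed.

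Of 17 interneuron subtype genes 13 were tested, with medians of 0.03, -0.13 and 0.06 and 7, 5 and 9 of 13 higher. HTR3A, a serotonin receptor of caudal interneurons, had 0.539, 0.759, 0.827, 0.933 and 1.45 FPKM in the Co-NEC pigs and 0.918, 1.43 and 1.68 FPKM (lowest, median and highest) in the Si-NEC pigs. The groups overlapped, and Si-NEC against Co-NEC gave 0.42 on the log2 scale (SE 0.18, limma adjusted p = 0.867, exact permutation p = 0.0476, or 0.0714 without 223-15). VIP differed by -0.79 (SE 0.49) in Co-NEC against No NEC and by 0.61 (SE 0.47) in Si-NEC against Co-NEC, with pigs from 4.92 to 44.1 FPKM. CRHBP and CCK differed by -0.30 (SE 0.19) and -0.21 (SE 0.17) in Si-NEC against No NEC. Of the 46 single-entry pathway genes reported here, 2 (WNK3 and HTR3A) had an unadjusted limma p under 0.05 in Si-NEC against Co-NEC, a share of 4.35% beside 5.64% of all entries. The lower of the 2 entries of IQSEC3, an inhibitory synapse gene, was also under it, at -0.49 (SE 0.20) in Co-NEC against No NEC.

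**Figure D5:**
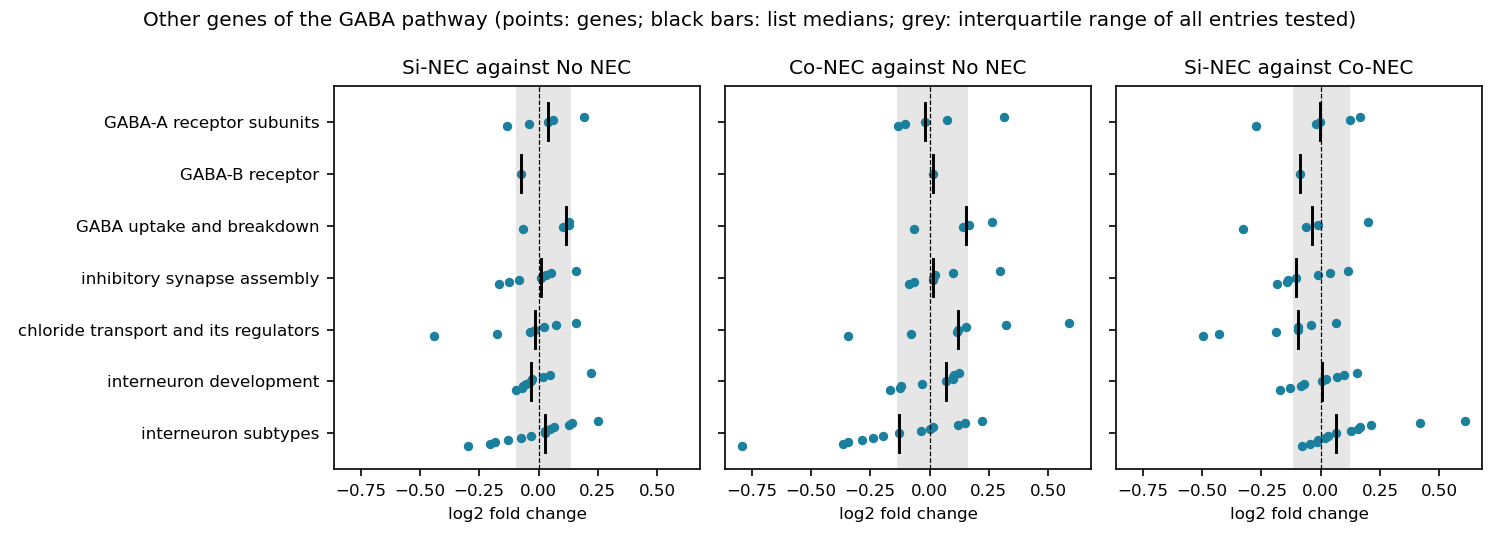
Log2 fold change of the tested single-entry genes of 7 pathway lists (points; horizontal axes) in the 3 comparisons, with list medians as black bars and the interquartile range of all 13590 entries tested in grey. List medians lie between -0.13 and 0.15, and the points farthest from 0 are VIP at -0.79 in Co-NEC against No NEC and at 0.61 between Si-NEC and Co-NEC.

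Lists of other cells were read beside the 7 genes, and none of their single-entry genes passed the adjusted test. Pan-neuronal genes had medians of 0.01, 0.06 and 0.00 in the 3 comparisons, glutamatergic neuron genes -0.01, 0.03 and -0.03, and hippocampal field genes 0.04, 0.01 and 0.09. Striatal and thalamic genes had medians of 0.10, 0.02 and 0.09. Among glia, the medians were 0.17, 0.13 and 0.08 for astrocytes, -0.07, -0.02 and -0.09 for oligodendrocytes (0, 2 and 1 of 4 higher), 0.17, 0.05 and -0.0048 for their precursors, and -0.09, -0.09 and -0.15 for microglia. Endothelial genes had medians of 0.16, 0.07 and -0.02. The medians farthest from 0 were those of lists with 2 genes tested, at -0.73, -0.41 and -0.32 for erythroid genes and at -0.01, -0.62 and 0.61 for the choroid plexus.

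The list of immature neuron genes held 9 names, of which 6 were matched and tested: DCX, SOX11, NEUROD1, TBR1, NES and IGFBPL1. Whether these mark immature neurons alone was not tested. For 6 of 6 the Si-NEC mean exceeded that of No NEC pigs, as for 53.8% of all entries, with a median of 0.22. In this comparison 2 of 6 had an unadjusted limma p under 0.05, beside 2.61% of all entries. Co-NEC exceeded No NEC for 5 of 6 (52.0% of all entries), with a median of 0.09 and 1 of 6 under that p (3.44%). Si-NEC exceeded Co-NEC for 5 of 6 (50.1%), with a median of 0.13 and 1 of 6 under it (5.64%). The summed level of the 6 immature neuron genes was 66.3 to 73.5 FPKM in Si-NEC and 56.9 to 61.2 FPKM in No NEC pigs, ranges that do not overlap. It was 60.0 to 72.5 FPKM in the Co-NEC pigs, which overlapped both. Of single entries, 0.155% did not overlap between Si-NEC and No NEC, but that share is no background for a sum of 6 genes. No background for such sums was computed. The part of the cell makeup in the GAD1 values was not tested.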

How the data were processed

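RNA of 16 left hippocampi was sequenced. After trimming, the authors aligned reads to Sscrofa10.2 with TopHat2 2.1.1, per the labels, and deposited FPKM values per gene and pig estimated with Cufflinks 2.2.1. How far these values were scaled between pigs is not given in the sources used here, and no depth per pig is known. Groups were taken from the labels. Nothing marks 2 samples as 1 animal, so each sample is 1 pig.

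The 24594 rows held 1779 identical ones, which were dropped. Symbols from a table of gene names matched 11001 of 21956 identifiers. The 13590 entries that averaged 0.5 FPKM or more were tested pairwise on log2(FPKM + 0.5) with limma 3.58.1 in R 4.3.3, with a variance trend, Benjamini-Hochberg adjustment and an adjusted p of 0.2 as threshold. Single genes and within-pig log2 ratios were compared with two-sided exact permutation tests, and correlations with 100000 permutations or exactly for 6 pigs (Python 3.11.15, scipy 1.17.1). The tests were checked on simulated data. A gene of several entries was read by its highest one, and list medians used genes of 1 entry, except that GABRA2 was counted by its main entry. The 7 genes and all lists were chosen with earlier results of these data known. Besides the 7 genes, the genes named were the alpha 2 to alpha 6 subunits, for each pathway list those with the smallest 2 p per comparison, and the 3 named entries most like each member. Genes read for their level alone (GABBR1, GPHN, WNK1, STK39, LHX6, PENK, PPP1R1B) were named after their values were seen. The markers LHX2, FIBCD1, GBX2, DRD1, DRD2 and TTR were picked from the cell lists outside these rules, and the immature neuron genes tested were all named. Alternatives were offsets of 0.1 and 1 FPKM, no filter and a minimum of 1 FPKM, rescaling by the median of ratios, sex or number suffix as covariate, 1 fit of all groups, eBayes without a trend or robust, array weights, and leaving out pigs singly or 223-15 with 230-15. Summing both GABRA2 entries was added after the data were seen. Of the 12 ratio comparisons 3, and the results of 5 pathway genes, are not reported here. Gene positions and sequences were not used here.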

Additional observations from a re-analysis of the deposited data

Results flagged for a closer look

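In 7 of 33 group values examined, 1 pig stood apart from the rest of its group by a gap large relative to the group's range (Dixon's criterion). For independent values of normal spread, chance gives this in about 1 in 20 groups. The values here share pigs, and the low-level entry of GABRA2 was at 0 in most pigs, so the count cannot be set against that rate. For SLC12A5 these were No NEC pig 230-15 at 64.2 FPKM and Si-NEC pig 223-15 at 51.3 FPKM, both low, and Co-NEC pig 255-15, high at 94.5 FPKM. Co-NEC pig 255-15 was also high for SLC32A1, at 43.5 FPKM, and Si-NEC pig 547-14 was high for SLC12A2, at 12.5 FPKM. The low-level entry of GABRA2 was read at 6.99 FPKM in 230-15 and at 1.92 FPKM in 223-15, in groups otherwise at or near 0. Pigs 230-15 and 223-15 had the highest summed FPKM, and the part of that in these values was not tested.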

How the results depend on the processing

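No paired analysis was possible because the labels give no replicate number that pairs pigs of different groups. Litter was not part of any test, so pigs were exchanged without regard to it. In all 3 comparisons, 0 of the 7 genes passed the adjusted test under every alternative run. The GABRA2 to GABRA5 difference of Co-NEC and No NEC kept its size (0.27) but had an exact p of 0.05, not under the threshold, with sex or with number suffix as strata. Over all alternatives other than single pigs left out, among them both GABRA2 entries summed, that difference ranged from 0.23 to 0.27, with an exact p from 0.0238 to 0.05. Without 223-15 and 230-15, the log2 ratio of SLC12A5 to SLC12A2 for Si-NEC against No NEC turned to 0.062 and that of GAD1 to GAD2 for Si-NEC against Co-NEC to -0.0019. Leaving out single pigs moved these differences over -0.10 to 0.10 and -0.019 to 0.098. It moved SLC12A5 to SLC12A2 for Co-NEC against No NEC over -0.40 to -0.15, with an exact p of 0.0238 without 255-15, and GABRA2 to GABRA5 for Si-NEC against No NEC over 0.11 to 0.21, with an exact p of 0.0476 without 539-14.

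Without 223-15 and 230-15, r turned to -0.075 for GAD1 and SLC32A1 and to -0.177 for SLC12A2 and SLC12A5, and was -0.675 (permutation p = 0.00722) for GAD2 and SLC32A1. Within suffix 14 (n = 6) these were -0.395, -0.556 and -0.879 (exact permutation p = 0.0153), and GABRA2 and GABRA5 gave 0.611. Within suffix 15 (n = 10) the first 3 were 0.448, 0.117 and -0.114, with permutation p-values of 0.190, 0.760 and 0.748.

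Differences near 0 turned with single pigs left out. They ranged over -0.14 to 0.076 for SLC12A5, -0.13 to 0.022 for SLC12A2, -0.074 to 0.11 for GABRA2 and -0.83 to 0.32 for its low entry (Si-NEC against No NEC), -0.13 to 0.0018 for SLC12A5 (Co-NEC against No NEC), and -0.056 to 0.043 for GABRA5 and -0.068 to 0.11 for SLC12A5 (Si-NEC against Co-NEC). In Si-NEC against Co-NEC, GABRA5 also turned without 223-15 and 230-15 (-0.056) and with array weights (-0.095), and SLC12A5 with these (0.11 and 0.12) and with sex as covariate (0.0022). The cause was not tested. With 5 or 6 pigs a group, no counts and no depth, differences of the size seen here lie inside wide intervals, and a p that misses the threshold does not show that groups are alike.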
